A study of Mus musculus with 8 samples.

Results

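The genes followed here are 36 mouse genes of glucose uptake, glycolysis, lactate handling, glycogen and the pentose phosphate pathway, in uteri collected shortly before embryo attachment. They were chosen by name, and a gene counted as measured where a probe set of the array listed it as its single gene. That held for 32 of the 36, among 19938 genes with such a probe set in all, and each of the 32 passed the filter on dim probe sets (above the 40th percentile of the array on at least 4 of 8 arrays). Gpi1, Eno1 and G6pdx had no probe set of that kind in the gene table used, and Gapdh appeared only in 25 probe sets that list further genes beside it, so these 4 were not analysed here. The pregnant group held 4 uteri of young virgin C57BL/6 females (The Jackson Laboratory) mated with stud males, and the pseudopregnant group 4 uteri of females of the same supply, divided at random, mated with vasectomised males, so that effects of the embryo and of the mating male cannot be told apart. Collection was at 22 h of day 3 (the night of mating being day 0), and the samples are labelled as biological replicates. Pregnant uteri were used where no blue dye reaction marked an attached embryo and healthy blastocysts could be flushed out, and the 8 RNA samples were those of best quality, with RNA integrity numbers of 6.9 to 8.7. Whole uterus was extracted, so the values mix muscle, stroma, epithelium, vessels and immune cells.

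Glucose enters cells through facilitative transporters of the Slc2a family, is trapped as glucose 6-phosphate by hexokinases and is then split and oxidised to pyruvate by the enzymes of glycolysis. Lactate dehydrogenase turns pyruvate into lactate, which leaves or enters cells through monocarboxylate transporters, while the pyruvate dehydrogenase complex feeds pyruvate to the mitochondria. Glucose 6-phosphate can instead be stored as glycogen or enter the pentose phosphate pathway, which supplies NADPH and ribose. The uterus before implantation stores glycogen and supplies sugar to the embryo, and glycolytic enzymes are known to become abundant in stromal cells that decidualize after attachment.

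The 8 arrays had like medians (linear intensities of 55.2 to 56.3), and arrays of the same group correlated at 0.984 to 0.994. With 4 arrays a group, it is this number that sets the precision. Pregnant replicate 2 and, less so, pseudopregnant replicate 1 stood apart from their groups on the first principal component (-26.7 against -6.63 to -4.90, and 20.3 against 6.76 to 9.32). The former was the highest or the lowest pregnant array for 27 of the 32 measured members, against 9 to 16 for the other pregnant arrays. Results of single members that rest on it are therefore given without it as well. Marker genes of smooth muscle (Myh11, Acta2), epithelium (Epcam, Krt8), stroma (Pdgfra, Dcn) and endothelium (Pecam1, Cdh5) were above the 40th percentile of their array on all 8 arrays.

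Of the 32 measured members, 1 rose in the pregnant uterus, Slc16a1, and 0 fell (limma, adjusted p under 0.05 over all probe sets kept). Over all 17494 probe sets kept the shares were 1.82% in either direction, 1.41% higher and 0.412% lower, so that 1 member in 32 (3.13%) is close to the background. At an unadjusted p under 0.05, 7 members were higher and 3 lower, against 14.3% higher and 9.43% lower over all probe sets. The 2 groups of 4 arrays did not overlap for 9 members. The 7 of these that were higher in every pregnant uterus were Slc16a1, Ldha, Pgk1, Pgam1, Tpi1, Pgd and Hk2, which is 21.9% of the members against 9.23% of all probe sets. Pfkfb3 and Slc2a8 were lower in every pregnant uterus, 6.25% of the members against 5.38%. The median difference between the groups, on the log2 intensity scale on which all differences here are given, was 0.02 over the members and 0.0019 over all probe sets kept, and 17 members lay above 0 and 15 below. By role, the 7 higher members were 3 of 5 in lower glycolysis, 2 of 7 in pyruvate and lactate handling, 1 of 9 in upper glycolysis and 1 of 2 in the pentose phosphate pathway, and no glycogen gene had an unadjusted p under 0.05.

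**Figure D1:**
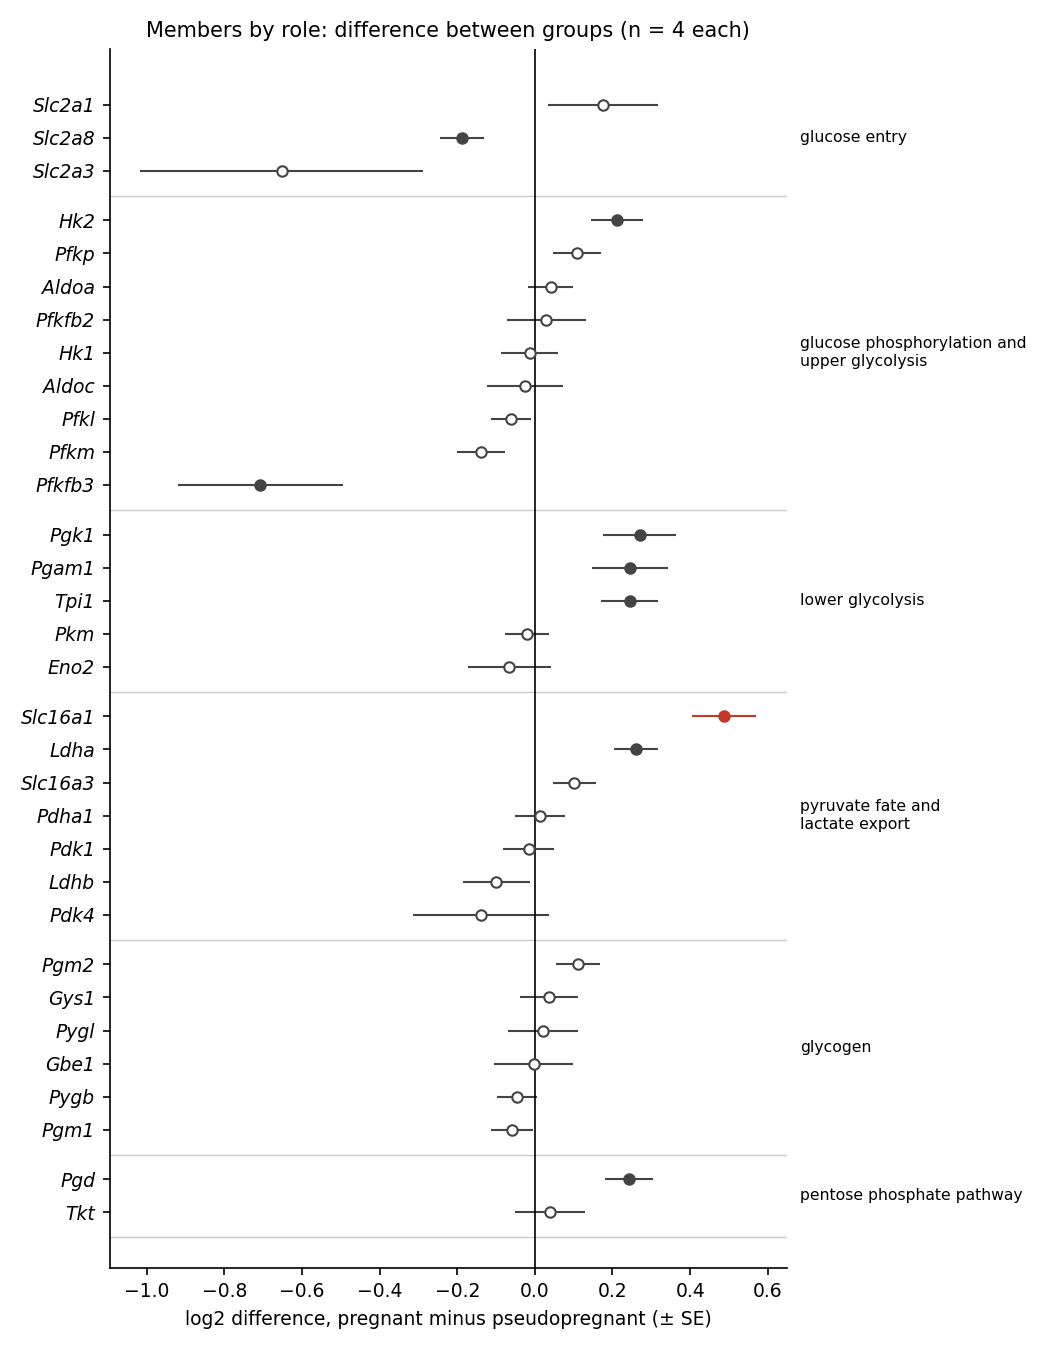
Log2 difference between pregnant and pseudopregnant uterus (x axis, mean difference ± limma SE, n = 4 each) for the 32 measured members (y axis), grouped by role. Filled points mark the 9 members whose groups did not overlap, and red marks Slc16a1, which passed the adjusted threshold; Slc2a3 and Pfkfb3 have the widest errors.

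Glucose entry was represented by 3 transporters, and none passed the test. Slc2a1 (GLUT1), the widespread basal glucose transporter, had log2 intensities of 8.16, 8.82, 8.42 and 8.24 on pregnant arrays 1 to 4 and of 8.13, 8.10, 8.20 and 8.51 on pseudopregnant arrays 1 to 4. The groups overlapped, and the difference of 0.18 ± 0.14 (SE, limma adjusted p = 0.48) was 0.04 without pregnant replicate 2. Slc2a3 (GLUT3), a high-affinity glucose transporter, had 9.04, 7.55, 9.43 and 9.50 in the pregnant group and 9.66, 9.65, 9.60 and 9.23 in the pseudopregnant group. Its value on pregnant replicate 2 lay far below the other 7 arrays. The means were 8.88 ± 0.909 and 9.54 ± 0.205 (SD, n = 4 each), a difference of -0.65 ± 0.36 (SE, limma adjusted p = 0.30), which shrank to -0.21 without that array. Slc2a8 (GLUT8), a transporter kept largely on intracellular membranes, had 5.32, 5.18, 5.33 and 5.27 against 5.51, 5.42, 5.51 and 5.41. All 4 pregnant values lay below all 4 pseudopregnant values, by a mean of -0.19 ± 0.056 (SE, limma adjusted p = 0.092), with -0.15 without pregnant replicate 2. These are dim values, 1 of them below the 40th percentile of its array, so the size of the Slc2a8 difference is uncertain.

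In upper glycolysis 0 of 9 measured members passed, and the members pointed in both directions. Hk2, the inducible hexokinase that commits glucose to the cell, had 6.05, 6.23, 6.30 and 6.14 in the pregnant group and 6.03, 5.89, 5.91 and 6.03 in the pseudopregnant group. The groups lay close, with 6.05 as the lowest pregnant and 6.03 as the highest pseudopregnant value, and the difference was 0.21 ± 0.067 (SE, limma adjusted p = 0.10). Hk1, the constitutive hexokinase, differed by -0.01 ± 0.074 (adjusted p = 0.93). The probe set taken for it by the rule of highest mean lists a single accession and no RefSeq mRNA, and 16 further probe sets list Hk1 together with the ribosomal protein gene Rpl17. Whether that probe set reads hexokinase RNA was not tested. The other Hk1 probe set, with 2 RefSeq mRNAs, differed by -0.05 ± 0.052 (adjusted p = 0.57).

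Pfkfb3 makes fructose 2,6-bisphosphate, the strongest activator of phosphofructokinase. Its log2 intensities were 7.37, 6.66, 7.47 and 7.15 in the pregnant group and 8.43, 7.72, 7.85 and 7.48 in the pseudopregnant group. The groups did not overlap, although the highest pregnant value, 7.467, nearly met the lowest pseudopregnant value, 7.484. Means of 7.16 ± 0.36 and 7.87 ± 0.40 (SD, n = 4 each) differed by -0.71 ± 0.21 (SE, limma adjusted p = 0.096; 95% interval -1.18 to -0.23), a 1.63-fold lower mean in the pregnant uterus and the widest difference among the members. Without pseudopregnant replicate 1 it was -0.52, without pregnant replicate 2 it was -0.54, and without both -0.35.

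Of the 3 phosphofructokinase subunits, the enzyme that sets the pace of glycolysis, the muscle form Pfkm differed by -0.14 ± 0.061 (SE, limma adjusted p = 0.20), the liver form Pfkl by -0.06 ± 0.051 (0.49) and the platelet form Pfkp by 0.11 ± 0.062 (0.32). The pregnant values of Pfkm ran from 7.17 to 7.39 and the pseudopregnant values from 7.35 to 7.49, with an overlap. Pfkfb2, the relative of Pfkfb3 known from heart, differed by 0.03 (95% interval -0.20 to 0.25). The aldolases, which split the sugar bisphosphate, differed by 0.04 for Aldoa (-0.09 to 0.17) and -0.03 for Aldoc (-0.24 to 0.19).

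In lower glycolysis 0 of 5 measured members passed, and 3 of the 5 were higher on every pregnant array, as were 9.23% of all probe sets; for Pgk1 the groups all but met. Tpi1, which interconverts the triose phosphates, had 9.14, 9.42, 9.13 and 9.29 in the pregnant group against 9.06, 9.05, 8.91 and 8.99. Every pregnant value was higher, with a mean difference of 0.24 ± 0.074 (SE, limma adjusted p = 0.096), and of 0.19 without pregnant replicate 2. Pgk1, the first ATP-yielding enzyme of the pathway, had 8.58, 8.90, 8.58 and 8.89 against 8.30, 8.50, 8.57 and 8.49. Its difference was 0.27 ± 0.095 (adjusted p = 0.13), and the gap between the groups was narrow, at 8.575 against 8.569. Of the 3 Pgk1 probe sets, 2 held exactly equal values, and the third, with a difference of 0.22, overlapped between the groups.

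Pgam1, which moves the phosphate of phosphoglycerate, had 8.95, 9.36, 8.96 and 8.89 against 8.83, 8.86, 8.68 and 8.80. Its groups did not overlap, but pregnant replicate 2 stood far above the rest, and the difference of 0.25 ± 0.099 (SE, limma adjusted p = 0.17) was 0.14 without it. The other 2 Pgam1 probe sets, equal to each other, gave 0.22. Pgk1 and Pgam1 have near-identical copies elsewhere in the genome, and signal from a copy cannot be separated here from that of the gene. Pkm, the pyruvate kinase that closes glycolysis, differed by -0.02 ± 0.056 (adjusted p = 0.84; 95% interval -0.15 to 0.10), with values of 8.61 to 8.76 against 8.68 to 8.80. Eno2, the neuronal enolase, differed by -0.07 ± 0.11 (0.74). The array values do not separate the splice forms of Pkm.

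Lactate handling held the member that rose. Slc16a1 (MCT1), which carries lactate, pyruvate and ketone bodies across the plasma membrane together with a proton, had log2 intensities of 7.59, 7.74, 7.38 and 7.45 on the pregnant arrays and of 6.92, 7.12, 7.08 and 7.09 on the pseudopregnant arrays. All pregnant values lay above all pseudopregnant values, the lowest pregnant value, 7.38, well above the highest pseudopregnant value, 7.12. Means of 7.54 ± 0.16 and 7.05 ± 0.091 (SD, n = 4 each) gave a difference of 0.49 ± 0.083 (SE, limma adjusted p = 0.028; 95% interval 0.30 to 0.67), or 1.40-fold. The call ended without any of pregnant replicates 1 (adjusted p = 0.061) and 4 (0.054) and pseudopregnant replicates 1 (0.077), 2 (0.055) and 3 (0.068), each left out alone, and without the filter on dim probe sets (0.058). Without both arrays that stood apart, pregnant 2 and pseudopregnant 1, the difference was 0.38 (adjusted p = 0.074). It stayed between 0.38 and 0.54 under all 19 alternatives, several of which change the test but cannot change the difference. Slc16a3 (MCT4), a transporter typical of cells that export lactate, differed by 0.10 ± 0.056 (adjusted p = 0.30), with overlapping values of 6.15 to 6.28 and 6.06 to 6.22.

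Ldha, the lactate dehydrogenase subunit that favours lactate formation, had 10.44, 10.39, 10.46 and 10.30 in the pregnant group and 10.08, 10.22, 10.13 and 10.12 in the pseudopregnant group. Its groups did not overlap, and the SDs within them were small (0.072 and 0.059, n = 4 each). The difference of 0.26 ± 0.056 (SE, 1.20-fold) missed the threshold narrowly (limma adjusted p = 0.0503), and 3 alternatives brought it under the threshold, with adjusted p between 0.026 and 0.15 over all 19. Ldhb, the subunit typical of lactate-using tissue, differed by -0.10 ± 0.087 (adjusted p = 0.51), with values of 6.62 to 6.98 against 6.84 to 7.10. A second Ldhb probe set had 6.38, 6.68, 6.61 and 6.63 against 6.76, 7.04, 6.86 and 6.68. On that probe set every pregnant value was lower, by -0.26 ± 0.090 (adjusted p = 0.13), so the probe sets share a sign but not a size.

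The pyruvate dehydrogenase complex is switched off by the kinases Pdk1 to Pdk4. Among the members, Pdk1 differed by -0.02 ± 0.067 (SE, limma adjusted p = 0.90) and the catalytic subunit Pdha1 by 0.01 ± 0.064 (0.92; 95% interval -0.13 to 0.15). Pdk4, the starvation-induced kinase, had 5.07, 6.03, 5.53 and 5.40 against 5.44, 5.66, 5.61 and 5.87. The pregnant arrays spread over the whole range of the pseudopregnant arrays and beyond, and the difference of -0.14 ± 0.18 (0.66) was -0.31 without pregnant replicate 2 and 0.0089 without pregnant replicate 1. Pdk2 is no member but belongs to the same family, and it fell: its log2 intensities were 7.30, 7.24, 7.27 and 7.23 against 7.57, 7.56, 7.52 and 7.52, a difference of -0.28 ± 0.046 (limma adjusted p = 0.026). Its call held under 10 of 19 alternatives, with adjusted p up to 0.093, and ended without pregnant replicates 1, 2 or 4 or pseudopregnant replicates 1, 2 or 3, while the difference stayed between -0.31 and -0.26.

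**Figure D2:**
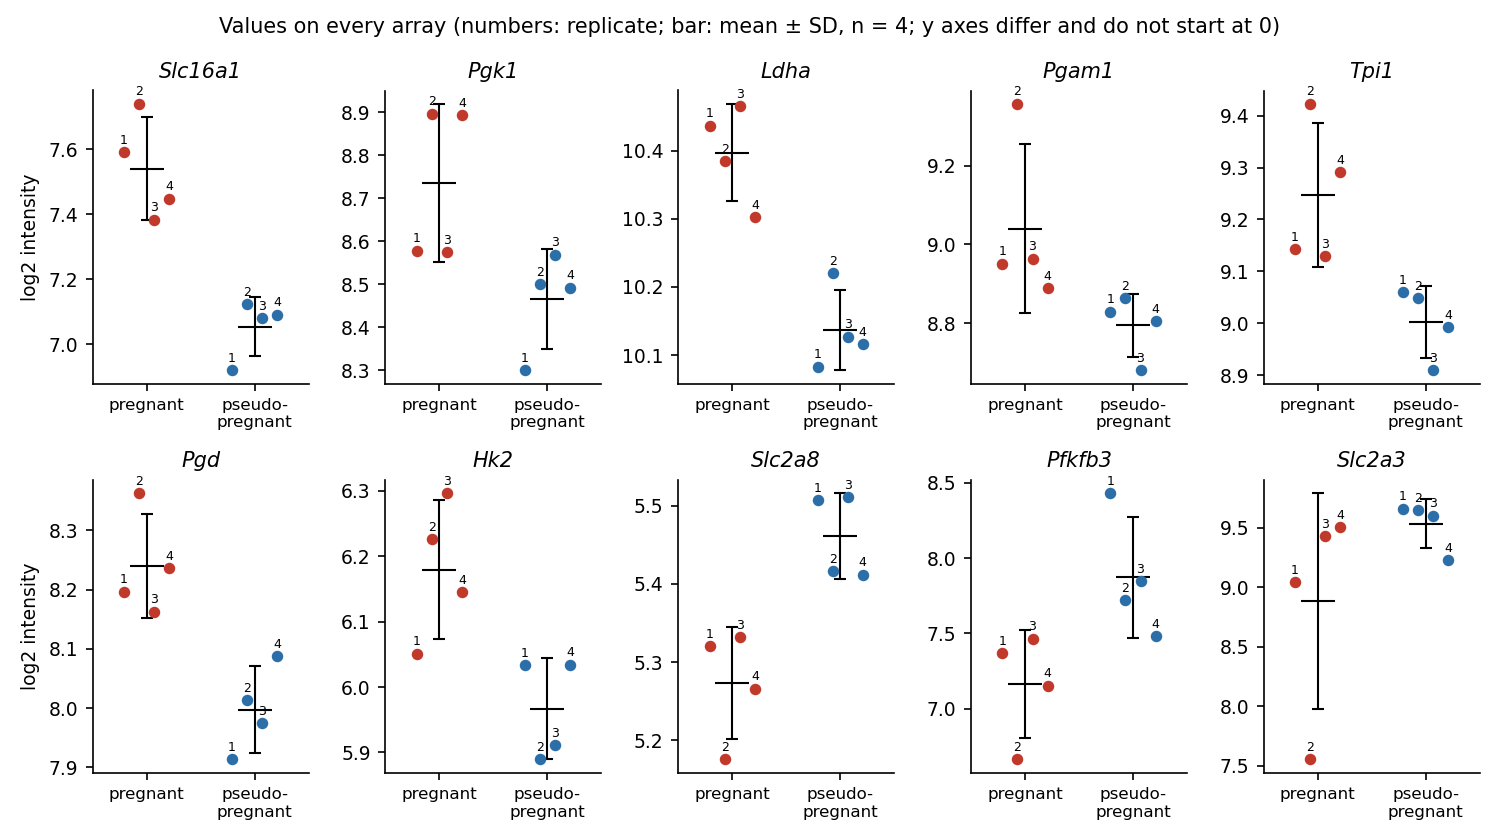
Log2 intensity (y axis, a separate scale in each panel, not starting at 0) on each of the 4 pregnant (red) and 4 pseudopregnant (blue) arrays for the 9 members whose groups did not overlap and for Slc2a3. Small numbers give the replicate and bars the mean ± SD; the lowest pregnant value of Slc16a1, 7.38, lies above the highest pseudopregnant value, 7.12, and Slc2a3 shows 1 pregnant array at 7.55.

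Promoters are shown for Slc16a1, Ldha and Pgk1, which had the widest differences among the 7 members higher in every pregnant uterus. That of Pfkfb3, the widest difference in the other direction, is shown as well. Genes of glycolysis are known targets of hypoxia-inducible factor, whose core site is ACGTG, and of basic helix-loop-helix factors that read CACGTG. The stretches are the 250 bases before the RefSeq transcription start in build GRCm38.p6, 5′ to 3′ on the strand of the gene. Slc16a1 lies at chr3:104638414-104638663 (plus strand), Ldha at chr7:46845554-46845803 (plus), Pgk1 at chrX:106186850-106187099 (plus) and Pfkfb3, at the upstream of its 2 starts, at chr2:11553930-11554179 (minus). Capitals mark ACGTG on either strand, so CACGT is its reverse complement, and a CACGTG holds the core on both strands.
Slc16a1: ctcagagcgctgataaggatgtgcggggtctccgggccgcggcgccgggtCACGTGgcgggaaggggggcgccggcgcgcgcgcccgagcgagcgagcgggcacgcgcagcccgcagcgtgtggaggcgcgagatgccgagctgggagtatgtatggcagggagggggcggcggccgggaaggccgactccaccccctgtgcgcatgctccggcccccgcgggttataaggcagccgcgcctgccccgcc
Ldha: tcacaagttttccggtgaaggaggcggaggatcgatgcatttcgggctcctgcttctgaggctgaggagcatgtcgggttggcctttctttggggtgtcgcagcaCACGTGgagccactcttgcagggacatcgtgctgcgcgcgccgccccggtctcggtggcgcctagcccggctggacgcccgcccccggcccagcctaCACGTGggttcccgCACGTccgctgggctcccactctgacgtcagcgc
Pgk1: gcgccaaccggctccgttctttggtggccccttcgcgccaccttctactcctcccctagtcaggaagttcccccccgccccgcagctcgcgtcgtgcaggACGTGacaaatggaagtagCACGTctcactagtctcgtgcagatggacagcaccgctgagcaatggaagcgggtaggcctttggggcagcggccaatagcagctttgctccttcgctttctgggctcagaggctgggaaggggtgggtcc
Pfkfb3: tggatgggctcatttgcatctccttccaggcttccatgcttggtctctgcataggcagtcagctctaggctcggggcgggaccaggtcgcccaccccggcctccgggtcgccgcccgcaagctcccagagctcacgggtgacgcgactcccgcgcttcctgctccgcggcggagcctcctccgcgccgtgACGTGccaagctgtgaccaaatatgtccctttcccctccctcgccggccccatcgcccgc
Each of these stretches holds the core, counting both strands 5 times for Ldha, 2 times for Slc16a1 and Pgk1, and 1 time for Pfkfb3. The stretch before the second start holds none for Ldha and 2 for Pfkfb3. Among the 51 stretches of 35 members in the RefSeq table, 20 (39.2%) held ACGTG on either strand, against 16.6% of all 32851 stretches of this length, and 5 (9.80%) held CACGTG, against 6.02%. Of the other members whose groups did not overlap, Hk2 and Pgam1 held the core and Tpi1, Pgd and Slc2a8 did not. A match describes letters only, and both higher and lower genes carried it.

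None of 6 measured glycogen genes passed or had an unadjusted p under 0.05, and their differences lay between -0.06 and 0.11. The phosphoglucomutases link glucose 6-phosphate with glycogen. The RefSeq table lists each of the names Pgm1 and Pgm2 as a synonym of the other gene, and the names here follow its gene numbers. Pgm2 had 7.93, 7.93, 8.06 and 7.97 in the pregnant group against 7.84, 7.94, 7.76 and 7.90, a difference of 0.11 ± 0.057 (SE, limma adjusted p = 0.27). Pgm1 had 6.88, 6.78, 6.96 and 6.93 against 6.92, 6.97, 6.96 and 6.92, a difference of -0.06 ± 0.054 (0.54). Both overlapped between the groups. The synthase Gys1 differed by 0.04 (95% interval -0.13 to 0.20) and the branching enzyme Gbe1 by -0.0030 (-0.23 to 0.22). The phosphorylases, which break glycogen down, differed by -0.05 for the brain form Pygb (-0.16 to 0.07) and by 0.02 for the liver form Pygl (-0.18 to 0.22).

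Of the pentose phosphate pathway, Pgd, the second of its NADPH-making dehydrogenases, had 8.20, 8.36, 8.16 and 8.24 in the pregnant group and 7.91, 8.01, 7.97 and 8.09 in the pseudopregnant group. Every pregnant value was higher, with a difference of 0.24 ± 0.062 (SE, limma adjusted p = 0.066; 95% interval 0.10 to 0.38) and of 0.20 without pregnant replicate 2. Tkt, the transketolase of the non-oxidative branch, had 7.22, 6.87, 6.85 and 7.16 against 6.96, 7.03, 7.07 and 6.89. The pregnant values lay on both sides of the pseudopregnant ones, and the difference was 0.04 ± 0.091 (0.82).

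**Figure D3:**
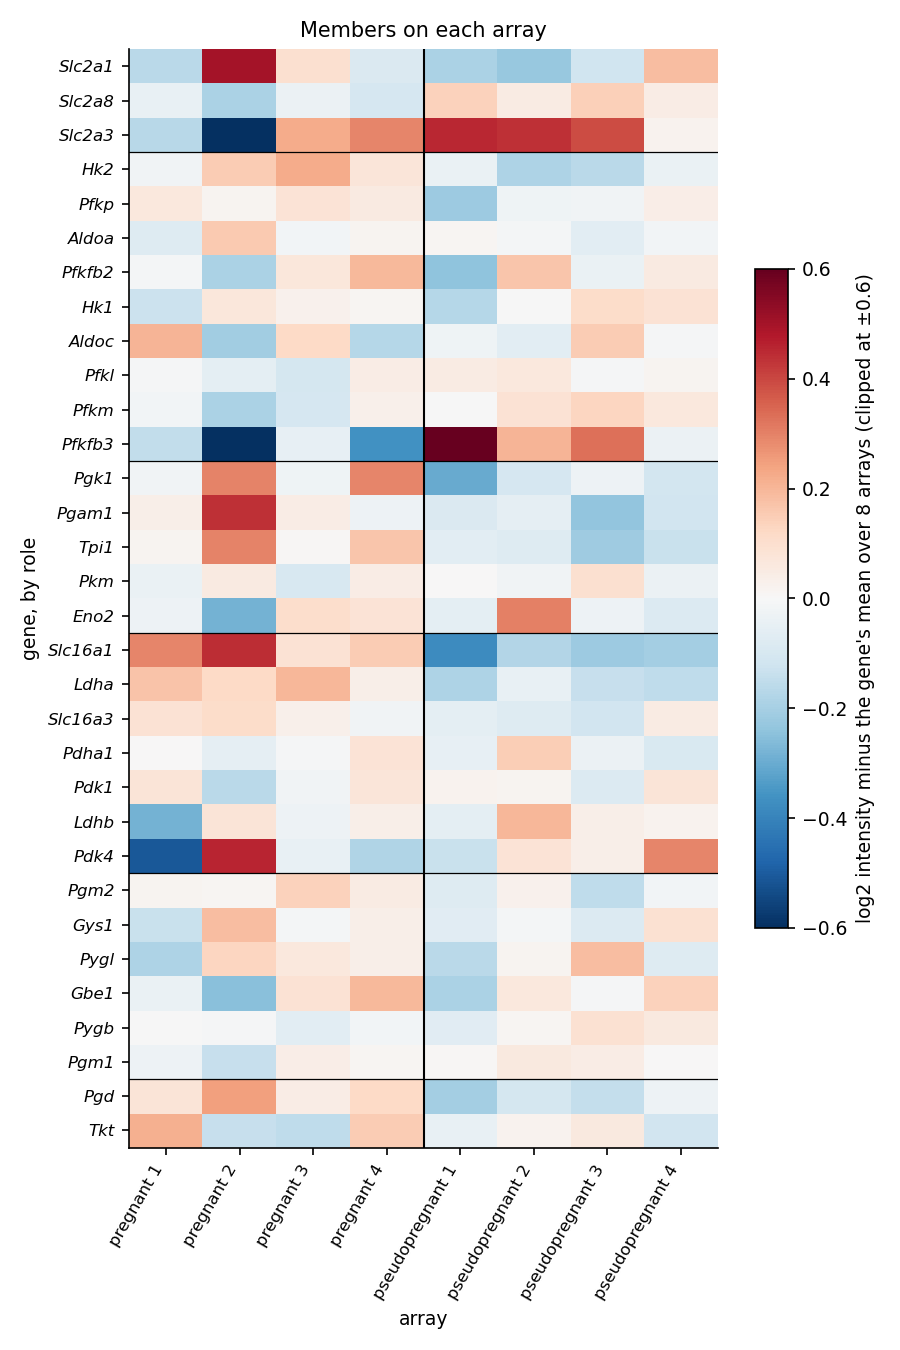
Log2 intensity of the 32 measured members (rows, by role) on the 8 arrays (columns), each minus the gene's mean over the arrays; red is higher and blue lower, and colours are clipped at a size of 0.6. Pregnant replicate 2 carries the deepest colours of its group for Slc2a1, Slc2a3, Pfkfb3, Pgam1 and Slc16a1, while Slc16a1 and Ldha are red on all pregnant and blue on all pseudopregnant arrays.

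Several steps are carried out by alternative isoenzymes or transporters, and the difference between the changes of 2 such members was tested in 13 pairs with exact two-sided permutation tests (70 possible arrangements), whose smallest p is 0.029. Of the 13 pairs, 5 reached that p, which becomes 0.074 when adjusted over the pairs, so 0 passed. Ldha stood 0.36 ± 0.11 (SE) above Ldhb in its change, Slc16a1 0.38 ± 0.081 above Slc16a3 and Pfkfb2 0.74 ± 0.31 above Pfkfb3 (exact permutation p = 0.029 each, n = 4 each). The change of Pfkm less that of Pfkp was -0.25 ± 0.059, and that of Pgm1 less that of Pgm2 -0.17 ± 0.048 (exact permutation p = 0.029 each). The pair of Slc2a1 and Slc2a3 had the widest difference, 0.83 ± 0.62, but also the widest spread (exact permutation p = 0.23). With single arrays left out, that difference ran from 0.25 to 1.09, and that of Pfkfb2 less Pfkfb3 from 0.47 to 0.89. Hk1, on its probe set that lists no RefSeq mRNA, differed from Hk2 by -0.23 ± 0.092 (exact permutation p = 0.11). The remaining pairs had exact permutation p between 0.057 and 0.69. As 0.029 is the smallest p possible, a pair could pass the adjustment only if several more pairs than these 5 had reached it. The tests therefore cannot decide whether the 2 members of any single pair differ in their change.

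Related genes of sugar metabolism were followed in further lists, of which 7 are given here and gluconeogenesis among the other observations. Of the measured genes of these 7 lists 1 rose and 1 fell (limma, adjusted p under 0.05). Over all probe sets kept, 1.41% rose and 0.412% fell by the same threshold. In the pyruvate dehydrogenase complex Pdk2 fell, 1 of 9, with a list median of -0.01. Among the side branches Psat1, an enzyme of serine synthesis from a glycolytic intermediate, rose, 1 of 15, with a list median of 0.12. Its values were 7.04, 7.41, 6.82 and 6.98 against 6.41, 6.58, 6.67 and 6.40, a difference of 0.55 ± 0.12 (SE, adjusted p = 0.049) that kept its sign but passed under only 5 of 19 alternatives and, with single arrays left out, only without pregnant replicate 3. The counts were 0 of 8 for further glucose transporters, 0 of 7 for further glycolytic enzymes, 0 of 5 for further lactate and pyruvate carriers, 0 of 18 for further glycogen genes and 0 of 25 for regulators of sugar use. Their medians were -0.05, 0.09, 0.0014, -0.05 and -0.03.

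By smallest p in those lists, Pfkfb4, a relative of Pfkfb3, differed by 0.20 ± 0.067 (SE, limma adjusted p = 0.12), the intestinal glucose transporter Slc5a1 by 0.30 ± 0.132 (0.21) and the muscle glycogen phosphorylase Pygm by -0.21 ± 0.086 (0.18). The monocarboxylate transporter Slc16a8 differed by -0.27 ± 0.067 (0.064), but it was dim: on all 4 pregnant arrays it was under the 40th percentile and on all 4 pseudopregnant arrays over it, so it passed the filter only through the group where it was higher. Slc5a1 was dim too, above that percentile on 5 of 8 arrays. Bsg, the chaperone that brings Slc16a1 and Slc16a3 to the plasma membrane, differed by 0.0014 ± 0.045 (0.99), with 9.55 to 9.62 in the pregnant group and 9.58 to 9.61 in the pseudopregnant group. Irs1, an adaptor of the insulin receptor, differed by -0.27 ± 0.063 (0.058), Txnip, a glucose-induced brake on glucose uptake, by -0.16 ± 0.14 (0.50) and Hif1a by 0.12 ± 0.10 (0.49). Of 13 measured genes that hypoxia induces outside sugar use, 0 passed, and their median was 0.01. Vegfa differed by -0.0042 ± 0.056 (0.97) and Bnip3, of smallest p among them, by -0.12 ± 0.051 (0.19).

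Some lists of cell type markers, and the cell cycle list, held genes that passed or lay mostly on the same side of 0. Over all probe sets kept, 1.41% rose and 0.412% fell (limma, adjusted p under 0.05), and 50.6% lay above 0. In whole uterus fewer cells of a type and less RNA per cell cannot be told apart. Among macrophage and dendritic cell markers 8 of 14 rose, with a mean log2 level of 6.87 to 7.03 on the pregnant and 6.56 to 6.70 on the pseudopregnant arrays. List levels here are means over all list genes on the array, 15 for this list, including those too dim to test. Of 7 NK cell and lymphocyte markers that could be tested 4 rose, and the level over all 11 on the array was 5.73 to 6.08 against 5.20 to 5.59. Of the macrophage and dendritic cell markers that rose, those of smallest p were C1qb (log2 difference 0.56), Itgam (0.35), Adgre1 (0.62) and the pan-leukocyte gene Ptprc (0.68). Of the NK cell and lymphocyte markers, Gzmb (log2 difference 1.51), Il2rb (1.10), Ncr1 (0.99) and Prf1 (0.42) rose. Of 28 measured cell cycle genes 3 rose and all 28 lay above 0, with 7.20 to 7.80 against 6.86 to 7.13, highest on pregnant replicate 2. The replication clamp Pcna (log2 difference 0.55), the repressor E2f8 (0.88) and the cyclin Ccne2 (0.77) rose. Of 11 endothelial markers 0 passed and all 11 lay below 0 (8.01 to 8.21 against 8.24 to 8.36), and of 11 epithelial markers 0 passed and 9 lay below 0 (7.20 to 7.55 against 7.44 to 7.87). Of 11 smooth muscle markers Myocd fell (-0.27 ± 0.058, SE, limma adjusted p = 0.0498), and the list level overlapped (9.19 to 9.34 against 9.17 to 9.41), while of 10 stromal markers 0 passed (9.86 to 10.03 against 9.81 to 9.89). Of 9 gland markers Wfdc3 fell (-0.24, limma adjusted p = 0.049), while 5 of the 9 lay above 0 and the list level was 6.76 to 7.59, highest on pregnant replicate 2, against 6.68 to 7.04. Their part in the differences of Slc16a1, Ldha, Pfkfb3 and the other members was not tested. Pregnant replicate 2 also gave the highest pregnant level of the macrophage and dendritic cell, NK cell and lymphocyte, smooth muscle and stromal lists. It gave the lowest pregnant level of the endothelial and epithelial lists. List levels without that array are not given. The defining markers of neutrophils (S100a8, Csf3r) and blastocysts (Pou5f1, Cdx2) lay below the 40th percentile on all 8 arrays, as did Adipoq of adipocytes. Of the other lists, 0 passed of 1 neutrophil and eosinophil, 2 red blood cell, 2 adipocyte, 3 striated muscle and 3 blastocyst markers that could be tested.

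**Figure D4:**
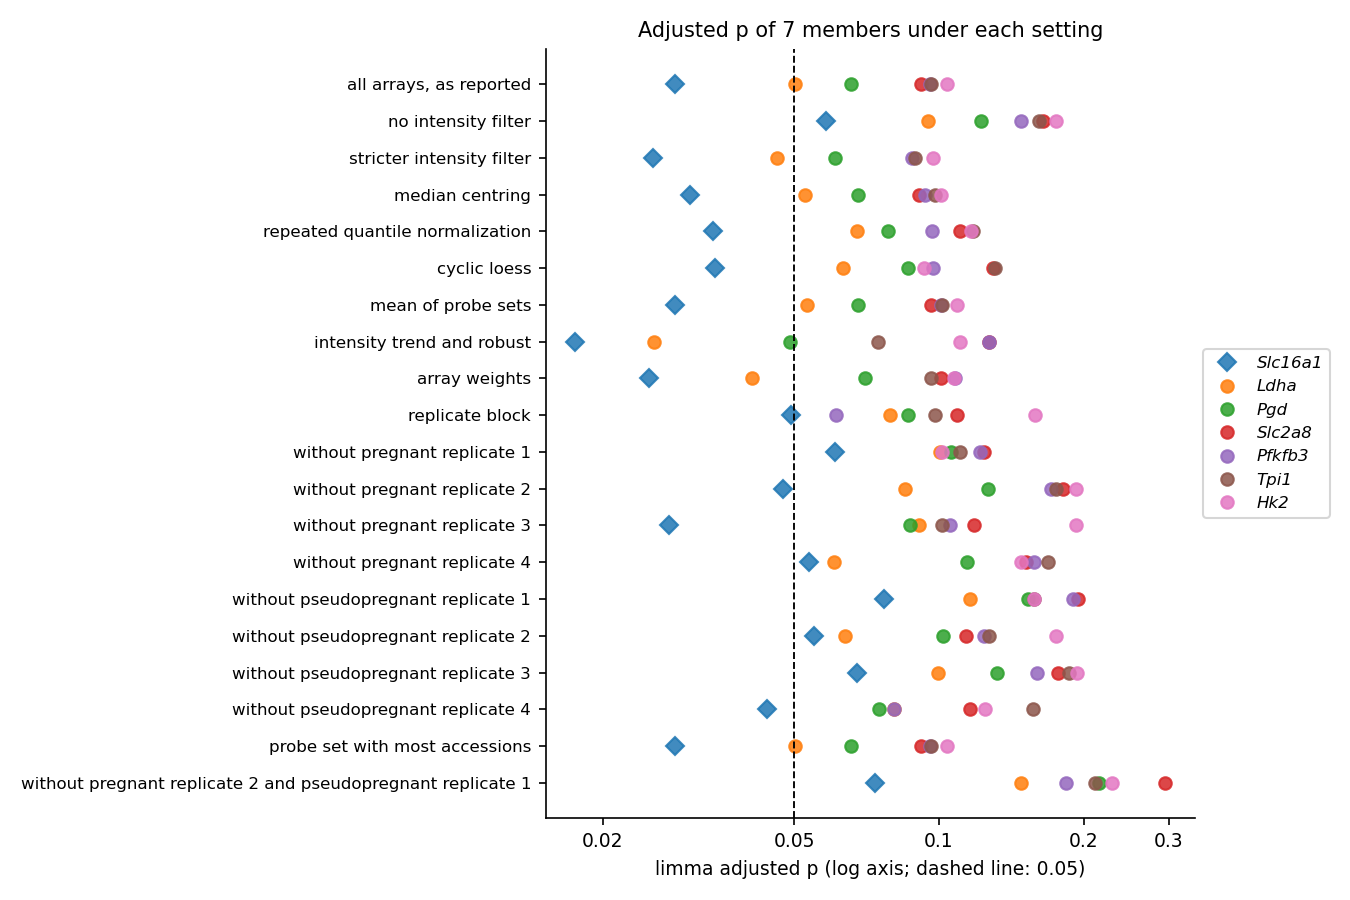
Limma adjusted p (x axis, log scale, dashed line at 0.05) of 7 members under the reported setting and 19 alternatives (y axis). Slc16a1 (diamonds) lies left of the line under the reported setting and 12 alternatives, Ldha under 3 and Pgd under 1, while Slc2a8, Pfkfb3, Tpi1 and Hk2 lie to its right throughout. For these 7 members the probe set with most accessions is the reported one, so that alternative repeats the reported result.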

How the data were processed

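Total RNA of 8 uteri, extracted with Trizol and labelled with biotin per the labels' protocols, was measured on expression arrays. The deposited table gives linear-scale intensities per probe set, made by the authors with RMA, a method of background correction, quantile normalization and robust summary of probes, per the submitters' processing notes. The software and its version are not stated in the labels. Log2 was taken here. RMA compresses changes near background, and intensities of different probe sets cannot be set against each other.

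Of 35556 probe sets, the 6612 in the unbroken run of lowest identifiers, none with a listed gene, were left out as controls by inference. Of the other 28944, 21789 listed 1 gene symbol, 1621 several and 5534 none. Probe sets with at least 4 of 8 arrays above the 40th percentile of their array were kept (17494). A gene was represented by its single-symbol probe set of highest mean. The gene numbers of all 32 measured members carried the same symbol in the RefSeq table (GRCm38.p6).

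Groups were compared with lmFit and eBayes (limma 3.58.1, R 4.3.3), two-sided, with Benjamini-Hochberg adjustment over all kept probe sets. Samples are labelled as biological replicates, without saying whether animals were pooled. Figures used matplotlib 3.10.9 (Python 3.11.15). On simulated data for 17494 probe sets of this comparison, 38% of 1.2-fold, 86% of 1.4-fold, 98% of 1.5-fold and 92% of 2-fold changes were called, with 5.99% false among calls and 0 calls without change. Simulated probe sets varied independently, unlike real ones. The comparison was repeated under 17 other settings: filters, normalizations, averaged probe sets, variance models, the replicate number as a block, and each array left out. A further 2, the probe set with most accessions and the joint omission of the 2 arrays farthest out, were chosen after seeing the data. The first of these repeats the reported result for genes with 1 probe set, and also for Pdk2 and Psat1. Members and lists were chosen with earlier results of these data known. Values on every array are printed for members past the threshold, without overlap, or of the 2 smallest p in their role, and for Slc2a1, Pdk4 and the second Ldhb probe set, chosen after their values were seen. Of the other pathway lists, genes past the threshold (up to 4 a list), or that of smallest p, are named, with Txnip, Hif1a and Bsg. Of marker lists with no call, counts and levels stand for the gene of smallest p. Vegfa was named after its values were seen.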

Additional observations from a re-analysis of the deposited data

Results flagged for a closer look

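Among 64 sets of 4 array values (32 members in 2 groups), 3 held a value far from the other 3 of its group, where chance gives about 1 in 20. Slc2a3 had 9.23 on pseudopregnant replicate 4, against 9.60 to 9.66 on the other pseudopregnant arrays. Its value of 7.55 on pregnant replicate 2 did not meet the same criterion because the other pregnant arrays were spread out themselves. Pgam1 had 9.36 on pregnant replicate 2, against 8.89 to 8.96 on the other pregnant arrays. Eno2 had 6.61 on pseudopregnant replicate 2, against 6.23 to 6.29 on the other arrays of that group.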

How the results depend on the processing

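Across 19 alternatives, 19 members kept the sign of their difference and 13, none with a difference beyond 0.14 in size, did not. Other filters, the intensity trend with robust variance and the replicate block change the test but cannot change the difference. For genes with 1 probe set the same holds for averaging or choosing probe sets. Signs could therefore turn only under the remaining alternatives. The number of members called, 1 as reported, was 0 without a filter, 2 with the stricter filter, 3 with an intensity trend and robust variance, and 2 with array weights, all of them higher in pregnant uterus. Probe sets called fell from 319 to 54 without a filter and 174 with the replicate block, and were 708 with trend and robust variance. With single arrays left out, members called ranged from 0 to 1, and probe sets called from 40 without pseudopregnant replicate 1 or 3 to 235 without pseudopregnant replicate 4 (84, 101, 207 and 86 without pregnant replicates 1 to 4, 70 without pseudopregnant replicate 2). Without pregnant 2 and pseudopregnant 1 together, an alternative chosen after seeing the data, they were 0 and 48. The cause of these shifts was not tested.

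Signs turned in Gbe1 (0.0023) with median centring, in Pdha1 (-0.015) and Pygl (-0.0053) with repeated quantile normalization, in Pdk1 (0.0065) and Pdha1 (-0.024) with cyclic loess, and in Aldoc (0.0027), Pdk1 (0.020), Gbe1 (0.0089) and Pygl (-0.042) with array weights. With arrays left out, differences ran from -0.097 to 0.028 for Hk1, -0.046 to 0.097 for Pfkfb2, -0.0048 to 0.073 for Aldoa, -0.099 to 0.038 for Aldoc, -0.11 to 0.023 for Eno2, -0.044 to 0.0085 for Pkm, -0.047 to 0.040 for Pdk1, -0.38 to 0.0089 for Pdk4, -0.016 to 0.065 for Pdha1, -0.036 to 0.088 for Gys1, -0.069 to 0.080 for Gbe1, -0.069 to 0.086 for Pygl and -0.026 to 0.096 for Tkt.

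No clear pairing by replicate number was seen: same-numbered arrays had correlations of deviations of 0.24, 0.016, -0.10 and 0.044. Of the 8 arrays, 3 were closest to their own number, among them both arrays numbered 1. These few values cannot decide whether the samples were paired. With the replicate block Slc16a1 kept its call (limma adjusted p = 0.049), while Pdk2 (0.058) and Psat1 (0.058) did not. Of all probe sets called, 77.4% were higher, against 67.5% after repeated quantile normalization and 65.1% without pseudopregnant replicate 4, or 60.5% without pregnant replicate 4. Slc2a8 and Pdk4, each below the 40th percentile on 1 array, could not be tested under the stricter filter.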

Other observations

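Genes of gluconeogenesis, the route from pyruvate back to glucose, all lay below 0 where measured. Of 5 kept, 0 passed (limma, 0 at an unadjusted p under 0.05), with a median of -0.08. Over all probe sets kept, 50.6% lay above 0. Pcx, the pyruvate carboxylase that opens the route, had 7.88, 6.85, 7.77 and 7.97 on the pregnant arrays and 8.17, 8.07, 8.07 and 7.97 on the pseudopregnant arrays, a difference of -0.45 ± 0.21 (SE, limma adjusted p = 0.22) that became -0.20 without pregnant replicate 2. The value of that array was low for Pcx, Slc2a3 and Pfkfb3 alike.

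Among the 15 measured genes of the side branches, 2 enzymes that draw on sugar phosphates had every pregnant value above every pseudopregnant one, as Psat1 had. That pattern held for 9.23% of all probe sets kept. Prps1, which makes the ribose donor of nucleotide synthesis, had 7.54, 7.67, 7.44 and 7.61 against 7.34, 7.36, 7.34 and 7.35, a difference of 0.21 ± 0.057 (SE, limma adjusted p = 0.070). Gfpt1, the entry enzyme of hexosamine synthesis, had 7.49, 7.59, 7.60 and 7.67 against 7.32, 7.38, 7.38 and 7.46, a difference of 0.20 ± 0.056 (adjusted p = 0.076). Neither passed. Of the other enzymes of serine synthesis, Phgdh differed by 0.16 (adjusted p = 0.38) and Psph by -0.11 (0.32). These genes were singled out after their values were seen.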
